A study of Mus musculus with 8 samples.

Results

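Sphingosine 1-phosphate (S1P) and lysophosphatidic acid (LPA) are signaling lipids, and 9 genes that make, degrade or sense them were examined in bead-selected microvascular cells of mice with and without endothelial deletion of LRP1, the low-density lipoprotein receptor-related protein 1. The genes were taken by symbol from the deposited RNA-seq table and were 9 of its 22520 genes. They were the S1P receptor genes S1pr1, S1pr2 and S1pr3, the LPA receptor genes Lpar1, Lpar4 and Lpar6, the S1P kinase and lyase genes Sphk1 and Sgpl1, and Enpp2, which encodes the LPA-producing enzyme autotaxin. The series held 4 libraries labelled LRP1 KO and 4 labelled wild type (WT), all from C57BL/6 mice at postnatal day 14. The labels describe every library as heart, liver and lung microvascular cells mixed together, without saying how many animals entered each one. According to the study's methods, LRP1 KO mice carried floxed Lrp1 alleles (LRP1 f/f) and a tamoxifen-inducible Cre recombinase, CreERT2, under the promoter of the endothelial gene Cdh5 (Cdh5-CreER +/-). The WT littermates carried the same floxed alleles without the Cre transgene, and cells of both groups were selected with beads against PECAM-1.

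S1P is formed when sphingosine kinases phosphorylate sphingosine. It leaves the endothelial cell through the exporter SPNS2, and S1P lyase breaks it down irreversibly. Blood carries much more S1P than tissue does, and the endothelial receptor S1P1, which signals through Gi and Rac, keeps junctions between endothelial cells closed, whereas S1P2 couples to G12/13 and opposes it. LPA is released into the extracellular space by autotaxin and acts on its own receptors, of which LPA4 and LPA6 take part in the growth of embryonic vessels through G12/13 and YAP.

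The S1P receptors and the LPA receptors 1 to 3 are related proteins of one family. In aligned coding sequences of mouse S1P receptors 1 to 5 and LPA receptors 1 to 3 there was exactly 1 codon that encoded glutamate in all 5 S1P receptors and glutamine in all 3 LPA receptors. It corresponds to the residue known to separate S1P from LPA recognition in this family. The stretch around it is shown for the 4 genes of this family under study, in the coding direction from 5′ to 3′, with that codon in capitals and 5 codons on either side (transcripts of GENCODE M21). It is codon 121 of S1pr1, 109 of S1pr2, 116 of S1pr3 and 125 of Lpar1.
S1pr1: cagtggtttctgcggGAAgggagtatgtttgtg
S1pr2: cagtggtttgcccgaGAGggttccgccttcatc
S1pr3: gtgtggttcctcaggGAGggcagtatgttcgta
Lpar1: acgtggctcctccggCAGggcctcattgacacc
Lpar4 and Lpar6 encode LPA receptors of a different branch of the G protein-coupled receptors and were not aligned.

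The values are quantile-normalized and were read as FPKM, a unit that corrects for transcript length and library size, so they can be compared between genes as well as between libraries, but sequencing depth is unknown. Lrp1 itself ranged from 103.2 to 140.4 FPKM across the WT libraries and from 2.79 to 7.72 FPKM across the LRP1 KO libraries, which fits the labels of all 8 libraries. Endothelial markers were present in every WT library, with Kdr at 5.08 to 5.98 FPKM, Pecam1 at 6.80 to 8.76 FPKM and Eng at 48.7 to 61.7 FPKM. The fibroblast collagen gene Col1a1 stood at 395.4 to 565.1 FPKM, so the libraries are called microvascular cells by their label and not as a pure endothelial population. LRP1 KO library 4 stood apart from the other 3 LRP1 KO libraries. On the first principal component of the tested genes it lay at 0.102, against 17.2 to 27.3 in those 3 and -24.1 to -12.9 in WT. For S1pr1, S1pr2, Lpar4, Lpar6, Sgpl1, Enpp2, Spns2 and Cers4, and for counts of called genes, results without it are also given. In bulk RNA, fewer cells of a type and less RNA per cell cannot be told apart.

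The 9 genes covered a wide range of levels. In WT the lyase gene Sgpl1 was highest at 41.6 ± 3.36 FPKM (mean ± SD, n = 4 in this and every later mean). Sphk1 at 34.0 ± 2.87 FPKM and Lpar1 at 32.7 ± 5.46 FPKM followed, and their ranges overlapped. S1pr2 came next at 13.0 ± 1.10 FPKM and lay apart from its neighbours on both sides. S1pr1 at 4.65 ± 0.67 FPKM and Lpar6 at 4.59 ± 0.531 FPKM could not be ordered. S1pr3 followed at 2.13 ± 0.336 FPKM, then Enpp2 at 0.499 ± 0.0595 FPKM and Lpar4 at 0.0652 ± 0.0353 FPKM, each with ranges apart from the next. For comparison, the median over genes of at least 1 FPKM was 11.7 to 11.8 FPKM in each library. In LRP1 KO the order was the same except that the mean of S1pr1, 13.7 ± 8.39 FPKM, passed that of S1pr2, 11.3 ± 1.10 FPKM, with overlapping ranges. S1pr1 also overlapped Lpar1 and Lpar6 in LRP1 KO, and Sphk1 overlapped Sgpl1.

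**Figure D1:**
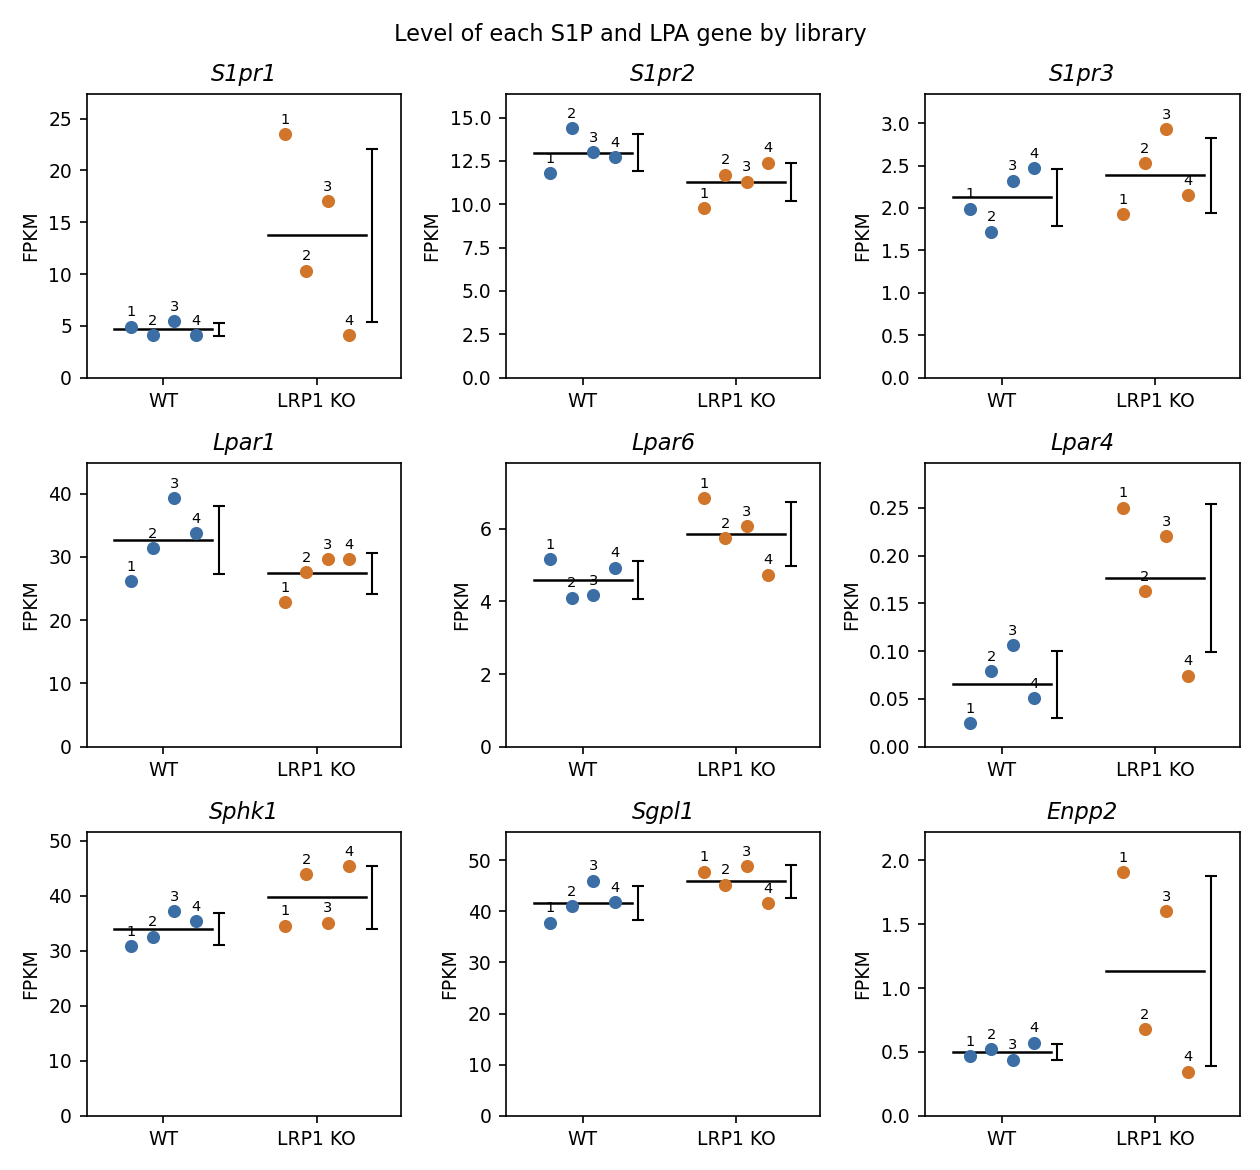
FPKM of each of the 9 genes in every library, with the library number beside each point, WT in blue and LRP1 KO in orange. Horizontal lines are group means and bars are ± SD (n = 4). S1pr1, Lpar6, Lpar4 and Enpp2 share a pattern in which LRP1 KO libraries 1 to 3 lie above all WT libraries and library 4 does not, while the groups overlap in all 9 genes.

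Of the 9 genes, 7 reached 1 FPKM in at least 4 libraries and were tested with limma among 11389 genes on the log2(FPKM + 1) scale. No member passed an adjusted p of 0.05, against 13.6% of all tested genes (6.27% higher and 7.31% lower in LRP1 KO, and 1.62% with an added 2-fold limit). At an unadjusted p under 0.05 there were 2 of the 7, S1pr1 and Lpar6, against 33.7% of all tested genes. The estimate was positive for 5 and negative for 2, with a median of 0.14 against -0.01 over all tested genes. In 0 of the 9 genes did the LRP1 KO libraries lie entirely to one side of the WT libraries, a separation seen in 19.6% of the tested genes. Without LRP1 KO library 4, S1pr1 and Lpar6 passed the adjusted threshold, 2 of 7 against 26.5% of all tested genes. These counts give no result about the 9 genes as a group, and the differences described next are those of single genes.

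S1pr1 (ENSMUSG00000045092, chr3:115710433-115715072 of GRCm38, minus strand) encodes S1P1. In library order 1 to 4, here and in all later lists, the WT values were 4.92, 4.09, 5.47 and 4.11 FPKM. The LRP1 KO values were 23.5, 10.3, 17.0 and 4.11 FPKM. Libraries 1 to 3 of LRP1 KO lay above every WT library and library 4 lay within the WT range, so the highest LRP1 KO value was 5.73 times the lowest, against 1.34 times in WT. The ratio of the group means was 2.96, and 3.65 without LRP1 KO library 4. On the log2 scale the difference was 1.17 (SE 0.40, 95% interval 0.26 to 2.08, limma adjusted p 0.0811), and an exact two-sided permutation test over the libraries gave p = 0.114. Without LRP1 KO library 4 it was 1.61 (limma adjusted p 0.00195). Leaving out any other library gave 0.85 to 1.24 and no call.

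The level of S1pr1 followed that of the endothelial marker genes Cdh5 and Pecam1 across the libraries. Of the 11389 tested genes, Cdh5 and Pecam1, which encode the junction proteins VE-cadherin and PECAM-1, had the profiles most like that of S1pr1 over the 8 libraries. Their root mean square differences from it were 0.077 and 0.090 on the log2 scale after centring, when S1pr1 itself varied by 0.847. For Cdh5, the WT values were 8.98, 9.31, 11.2 and 8.87 FPKM, and the LRP1 KO values were 47.3, 21.5, 33.9 and 8.56 FPKM. The ratio of S1pr1 to Cdh5 was 0.548, 0.440, 0.488 and 0.463 in WT and 0.498, 0.479, 0.502 and 0.480 in LRP1 KO. All 4 LRP1 KO ratios lay within the WT range. The ratio to Pecam1 was 0.509 to 0.624 in WT and 0.558 to 0.649 in LRP1 KO, and these ranges overlapped as well. Both ratios were chosen after the values were seen and use the genes most like S1pr1, so near-constant values followed from that choice. They are given as a description. Other endothelial markers differed from S1pr1, whose ratio of group means was 2.96. The ratio of group means was 1.40 for Kdr and 1.17 for Flt1, but 3.72 for Emcn and 4.02 for Erg.

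Most of the endothelial list was high in the same libraries. All of its 20 genes were detected, 13 of them at 1 FPKM or more in every library, and their summed level was 175.3 to 189.7 FPKM across WT and 181.1 to 642.3 FPKM across LRP1 KO libraries. Of 16 that were tested, 16 had positive estimates of 0.23 to 1.57 with a median of 0.88, and 4 had a larger estimate than S1pr1. In 15 of the 16, LRP1 KO libraries 1 to 3 all lay above WT, the exception being Flt1, whose value of 16.9 FPKM in library 1 was inside the WT range of 13.2 to 19.0 FPKM. In 14 of the 16, library 4 lay within or below the WT range, the exceptions being Kdr and Eng, whose values there, 6.28 and 63.2 FPKM, exceeded the highest WT values of 5.98 and 61.7 FPKM. Only Eng, which encodes the TGF-beta co-receptor endoglin, passed the adjusted threshold with all 8 libraries, at 0.94 (limma adjusted p 0.0279), and 15 of the 16 passed without LRP1 KO library 4. With the mean log2 level of those 16 genes as a covariate, the S1pr1 difference was -0.01 (95% interval -0.28 to 0.26, limma adjusted p 0.986). The covariate itself differed between the groups, at 2.74 to 2.91 in WT and at 4.39, 3.66, 4.0 and 2.73 in the LRP1 KO libraries.

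**Figure D2:**
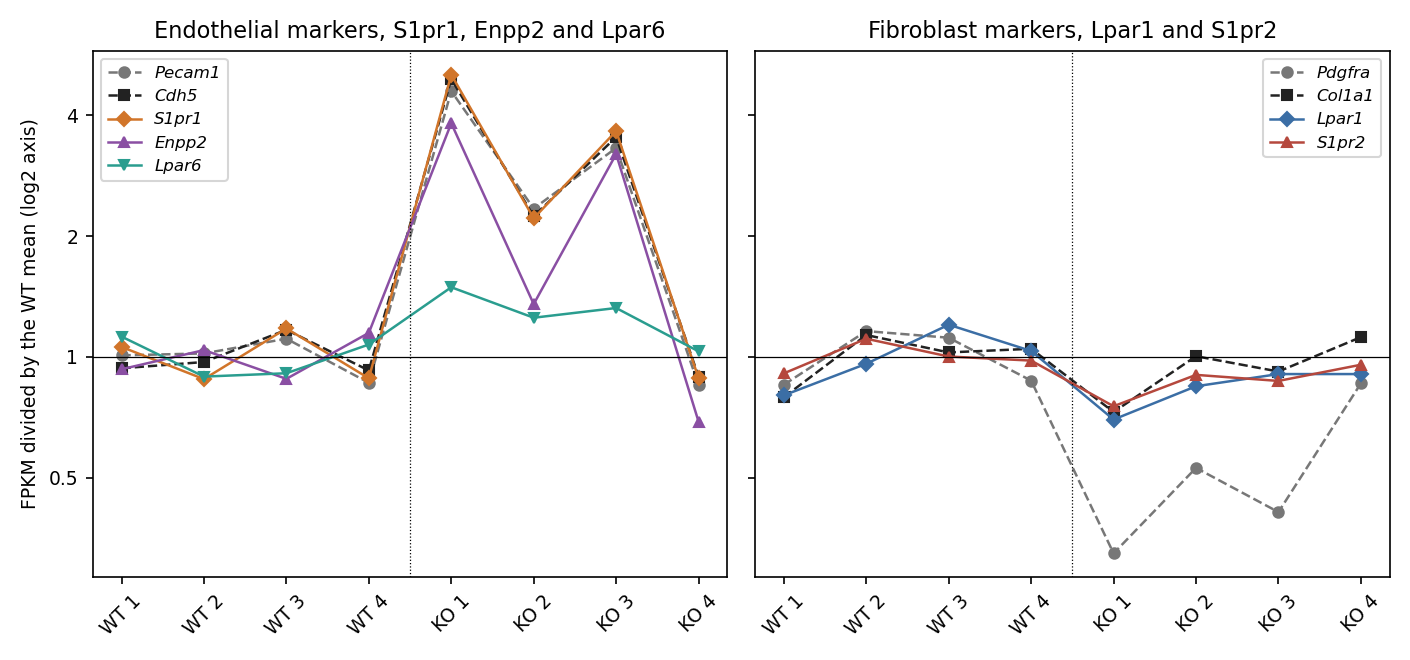
FPKM divided by the mean of the 4 WT libraries, on a log2 axis, for each library (KO stands for LRP1 KO). Left, S1pr1, Enpp2 and Lpar6 with the endothelial markers Pecam1 and Cdh5, and right, Lpar1 and S1pr2 with the fibroblast markers Pdgfra and Col1a1. The lines join libraries to guide the eye and imply no order. S1pr1 runs with Cdh5 and Pecam1 in all 8 libraries, Enpp2 is high in LRP1 KO libraries 1 and 3, and Lpar6, Lpar1 and S1pr2 vary much less.

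Markers of other cells differed as well, some in the libraries where S1pr1 was high and some in others. The 16 macrophage genes summed to 55.8 to 96.9 FPKM across WT and 225.3 to 552.1 FPKM across LRP1 KO libraries, none was at 0 in every library, and 8 of the 10 tested were higher in LRP1 KO. Of the 8, Adgre1 and Mrc1 reached 1 FPKM only in the 4 LRP1 KO libraries and so passed the filter through the group in which they were high. Their score was highest in LRP1 KO libraries 2 and 4, at 4.48 and 4.36, where S1pr1 was lowest. Smooth muscle and pericyte (mural) genes summed to 675.1 to 841.2 FPKM across WT and 1046.7 to 1645.7 FPKM across LRP1 KO libraries, with 5 of 9 tested higher. Their score was 4.05 to 4.22 in WT and 4.91, 4.88, 4.97 and 4.46 in LRP1 KO libraries 1 to 4, so it was above WT in all 4 and highest in the 3 where S1pr1 was high. Fibroblast genes summed to 2830.7 to 3982.3 FPKM across WT and 2380.2 to 3608.3 FPKM across LRP1 KO libraries, with 3 of 12 lower and 1 higher. Their score was 6.77 to 7.12 in WT and 6.09, 6.67, 6.4 and 7.0 in LRP1 KO, below WT in libraries 1 to 3 and within it in library 4. With these scores as covariates in turn, the S1pr1 estimate was 2.97 (macrophage), -1.36 (mural) and 0.25 (fibroblast), and none of the 3 passed. The lymphatic list (4 tested, 0 past a limma adjusted p of 0.05 and 1 past an unadjusted one) summed to 219.6 to 272.1 FPKM across WT and 220.4 to 278.0 FPKM across LRP1 KO libraries, a sum in which Pdpn, also on the fibroblast list, made up 183.6 to 250.5 FPKM. The lymphatic receptor genes Lyve1 and Flt4 lay above WT in LRP1 KO libraries 1 to 3, at 40.8, 19.0, 32.8 and 8.83 FPKM against 9.71 to 17.9 FPKM in WT for Lyve1 and at 10.4, 5.29, 7.91 and 2.68 FPKM against 2.81 to 3.85 FPKM for Flt4, and Mmrn1 lay above WT in libraries 1 and 3. In the other direction, Ccl21a, at 0.128 to 0.617 FPKM in WT, was at 0.0322, 0.0374, 0 and 0.514 FPKM in LRP1 KO, and Pdpn had an estimate of -0.19 (limma adjusted p 0.184) with libraries 2 and 3 below WT. The lymphatic score was 4.0 to 4.46 in WT and 5.22, 4.4, 4.96 and 3.86 in LRP1 KO. The part of these marker differences in the S1pr1 result beyond the covariate fits was not tested.

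Of 14 other leukocyte, 10 platelet and red cell and 12 parenchymal genes, 1, 1 and 3 were high enough to be tested, and 6, 3 and 1 were at 0 in every library. The leukocyte gene S100a8 was called higher in LRP1 KO, the red cell gene Alas2 did not pass, and 1 of the 3 parenchymal genes, Scgb1a1, was lower. On the log2(FPKM + 1) scale S100a8 was at 0.47 to 1.31 in WT and at 1.69, 2.08, 1.08 and 2.18 in LRP1 KO. The groups thus overlapped at a low level, and S100a8 passed the filter mainly through the LRP1 KO libraries. The cardiac troponin gene Tnnt2 was at 81.6 to 151.9 FPKM in all 8 libraries.

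S1pr2 (ENSMUSG00000043895, chr9:20962361-20976781, minus strand), which encodes the G12/13-coupled receptor S1P2, was the most abundant S1P receptor gene in WT. WT libraries held 11.8, 14.4, 13.0 and 12.7 FPKM. LRP1 KO libraries held 9.77, 11.7, 11.3 and 12.4 FPKM. Libraries 1 to 3 of LRP1 KO lay below every WT library, and library 4 lay within the WT range. The difference was -0.19 (SE 0.09, 95% interval -0.38 to 0.00), which did not pass (limma adjusted p 0.156, exact permutation p = 0.0571). Without LRP1 KO library 4 it was -0.23 (limma adjusted p 0.0859). It was -0.04 with the endothelial, -0.03 with the fibroblast, -0.47 with the macrophage and 0.08 with the mural covariate, and none of these passed. The genes with the profile most like that of S1pr2 were Bgn and Sgce, with root mean square differences of 0.035 and 0.044 against a variation of 0.142 in S1pr2 itself.

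S1pr3 (ENSMUSG00000067586, chr13:51408639-51422797, plus strand) encodes S1P3, a receptor found on smooth muscle as well as endothelial cells. The WT values were 1.99, 1.72, 2.32 and 2.47 FPKM, and the LRP1 KO values were 1.93, 2.53, 2.93 and 2.15 FPKM. The groups overlapped, with 2 of 4 LRP1 KO libraries above the highest WT value. The difference was 0.11 (SE 0.12, 95% interval -0.15 to 0.38, limma adjusted p 0.524, exact permutation p = 0.371). Leaving out 1 library gave 0.04 to 0.18 and no call. The profiles most like that of S1pr3 were those of E2f6 and Sec16b, with root mean square differences of 0.060 and 0.063 against its own 0.16.

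The balance among S1P receptor transcripts lay outside the WT range in 3 of the 4 LRP1 KO libraries. Of the FPKM summed over S1pr1 to S1pr5, S1pr1 made up 25.9%, 20.1%, 26.2% and 21% in the WT libraries. It made up 65.9%, 41.3%, 54.0% and 21.9% in the LRP1 KO libraries. The share of S1pr2 was 61.9% to 70.7% in WT and 27.3%, 47.0%, 35.7% and 65.8% in LRP1 KO. S1pr1 was thus the main S1P receptor transcript in LRP1 KO libraries 1 and 3, both were near parity in library 2, and library 4 had the shares of WT. The sum itself was 19.0 to 20.9 FPKM in the WT libraries. It was 35.7, 24.9, 31.6 and 18.8 FPKM in the LRP1 KO libraries, so it was above WT in the same 3 libraries. S1pr3 took 8.45% to 12.6% in WT and 5.42% to 11.5% in LRP1 KO. S1pr4 and S1pr5 were at most 0.319 FPKM in any library, with shares of at most 0.584% and 1.47%.

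**Figure D3:**
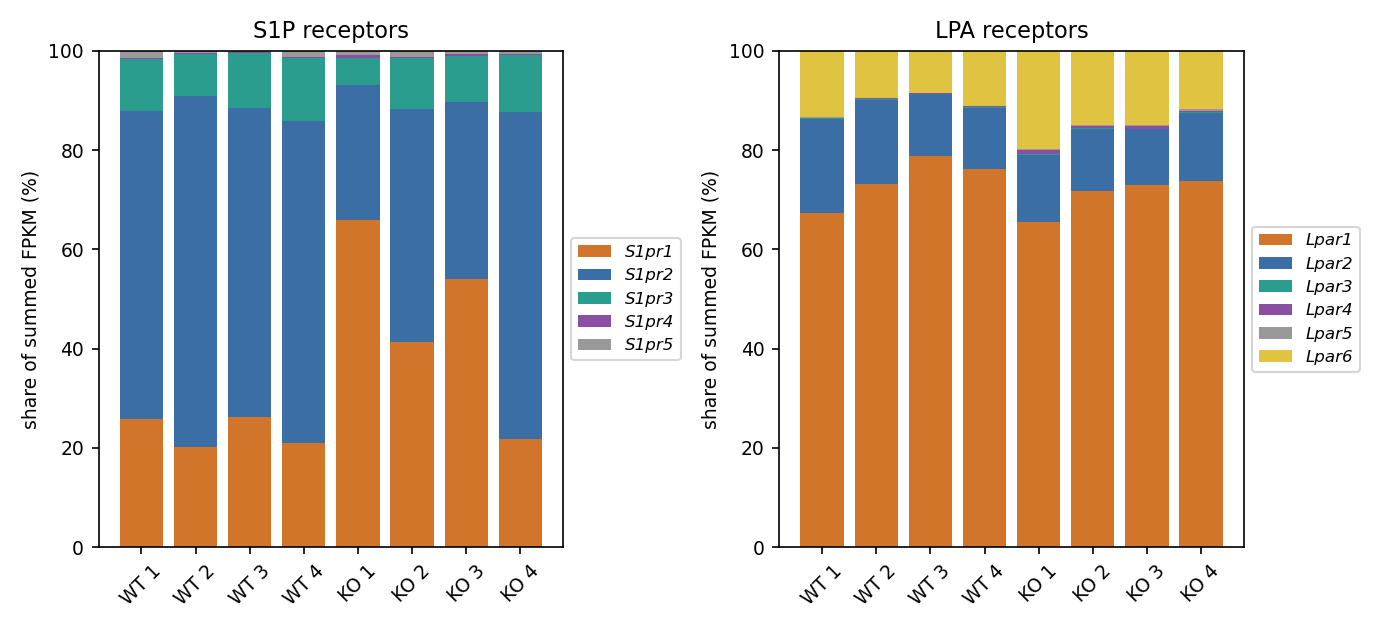
Share of the summed FPKM of the 5 S1P receptor genes (left) and the 6 LPA receptor genes (right) in each library (KO stands for LRP1 KO), with no error bar because each bar is 1 library. The S1pr1 share is 20.1% to 26.2% in WT and in LRP1 KO library 4 (21.9%), and 41.3% to 65.9% in the other 3, while Lpar1 holds 65.6% to 78.8% of the LPA receptor sum in every library.

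Lpar1 (ENSMUSG00000038668, chr4:58435255-58553898, minus strand) encodes LPA1, the LPA receptor prominent on fibroblasts, and was the main LPA receptor transcript in every library. WT libraries held 26.2, 31.4, 39.3 and 33.8 FPKM. LRP1 KO libraries held 22.8, 27.6, 29.6 and 29.6 FPKM. The groups overlapped, with 1 LRP1 KO library below the lowest WT value. The difference was -0.24 (SE 0.13, 95% interval -0.52 to 0.04, limma adjusted p 0.207, exact permutation p = 0.143). It stayed negative in all 17 alternative fits, at -0.56 to -0.05. The profiles most like that of Lpar1 were those of Dock10 and Slc43a3, with root mean square differences of 0.061 and 0.062 against its own 0.216.

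Lpar6 (ENSMUSG00000033446, chr14:73237895-73243294, plus strand) encodes LPA6. The WT values were 5.16, 4.10, 4.18 and 4.93 FPKM, and the LRP1 KO values were 6.85, 5.75, 6.08 and 4.74 FPKM. Again libraries 1 to 3 of LRP1 KO lay above every WT library and library 4 within the WT range. The difference was 0.29 (SE 0.11, 95% interval 0.04 to 0.53, limma adjusted p 0.10, exact permutation p = 0.0857), and the ratio of means was 1.27. Without LRP1 KO library 4 it was 0.37 (limma adjusted p 0.0239), and leaving out any other library gave 0.22 to 0.34 with no call. The difference was 0.07 with the endothelial covariate, 0.06 with the fibroblast, 0.72 with the macrophage and -0.16 with the mural one, with limma adjusted p of 0.887, 0.774, 0.166 and 0.999. The ratio of Lpar6 to Cdh5 was 0.373 to 0.575 in WT and 0.145, 0.268, 0.179 and 0.554 in the LRP1 KO libraries, so libraries 1 to 3 lay below the WT range. The profiles most like that of Lpar6 were those of Gss and Ddx39, with root mean square differences of 0.042 and 0.049 against its own 0.203. Lpar6 lies inside a longer protein-coding gene on the opposite strand and shares exon bases with it in GENCODE M21, and whether the counting used strand is not stated, so reads of that gene may enter its value. S1pr3, Sphk1 and Enpp2 each share exon bases with 1 gene on the opposite strand that is not protein-coding, and the same limit holds for their values.

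Lpar4 (ENSMUSG00000049929, chrX:106920625-106933900, plus strand) encodes LPA4, a relative of LPA6 in function. It was the lowest of the 9 genes. The WT values were 0.0246, 0.0789, 0.106 and 0.0509 FPKM, and the LRP1 KO values were 0.250, 0.163, 0.220 and 0.0743 FPKM. LRP1 KO libraries 1 to 3 were again the highest, and library 4 overlapped WT (exact permutation p = 0.0857). The ratio of means was 2.71, and 3.24 without LRP1 KO library 4. It did not reach 1 FPKM in any library, so it was not tested with the other genes. With no filter on low values its difference was 0.14 on the log2(FPKM + 1) scale (limma adjusted p 0.111), a scale that compresses values this low.

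Among LPA receptor transcripts Lpar1 had the highest share in every library, and the order of the next 2, Lpar2 and Lpar6, differed between libraries. Lpar1 made up 67.4% to 78.8% of the sum in WT and 65.6% to 73.7% in LRP1 KO. Lpar6 took 8.39% to 13.3% in WT and 19.7%, 15.0%, 15.0% and 11.8% in LRP1 KO libraries 1 to 4. Lpar3, Lpar4 and Lpar5 each took at most 0.72% in any library. Lpar2, whose level is described with the other pathway genes, took 18.9%, 16.9%, 12.5% and 12.3% in WT and 13.4%, 12.5%, 11.3% and 13.8% in LRP1 KO. Lpar2 thus exceeded Lpar6 in all 4 WT libraries and in LRP1 KO library 4, and Lpar6 exceeded Lpar2 in LRP1 KO libraries 1 to 3.

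Sphk1 (ENSMUSG00000061878, chr11:116530925-116536674, plus strand) encodes sphingosine kinase 1, which makes S1P. The WT values were 30.8, 32.5, 37.2 and 35.4 FPKM, and the LRP1 KO values were 34.5, 43.9, 35.1 and 45.3 FPKM. Only LRP1 KO libraries 2 and 4 lay above the WT range. Within LRP1 KO they had the highest macrophage and fibroblast scores and the lowest endothelial scores. The difference was 0.21 (SE 0.10, 95% interval -0.02 to 0.44, limma adjusted p 0.181, exact permutation p = 0.20). It was 0.43 with the endothelial covariate (limma adjusted p 0.119) and 0.41 with the fibroblast covariate (limma adjusted p 0.0554). With the mural covariate it was 0.55 (limma adjusted p 0.999), and with the macrophage covariate -0.39 (limma adjusted p 0.238). The profiles most like that of Sphk1 were those of C1qtnf2 and Gbe1, with root mean square differences of 0.054 and 0.079 against its own 0.179.

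Sgpl1 (ENSMUSG00000020097, chr10:61098642-61147703, minus strand) encodes S1P lyase, the enzyme of irreversible S1P breakdown. The WT values were 37.8, 41.0, 46.0 and 41.8 FPKM, and the LRP1 KO values were 47.8, 45.2, 48.9 and 41.6 FPKM. Only LRP1 KO libraries 1 and 3 lay above the WT range. Within LRP1 KO they had the highest endothelial, lymphatic and mural scores and the lowest macrophage and fibroblast scores. The difference was 0.14 (SE 0.07, 95% interval -0.03 to 0.30, limma adjusted p 0.22, exact permutation p = 0.171). Leaving out 1 library gave 0.09 to 0.18 and no call, with 0.18 without LRP1 KO library 4 (limma adjusted p 0.0936). It was 0.03 with the endothelial, 0.08 with the fibroblast, 0.23 with the macrophage and -0.17 with the mural covariate, and none of these passed. Rac1 and Tnpo2 had the profiles most like that of Sgpl1, with root mean square differences of 0.020 and 0.028 against its own 0.115.

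The kinase and the lyase were nearly balanced in WT, with Sphk1 lower than Sgpl1 by 0.23 to 0.32 on the log2 scale of FPKM in all 4 libraries. In LRP1 KO libraries 1 to 4, log2 Sphk1 minus log2 Sgpl1 was -0.46, -0.04, -0.47 and 0.12. The LRP1 KO libraries thus fell on both sides of the narrow WT range of -0.32 to -0.23, libraries 1 and 3 toward the lyase and libraries 2 and 4 toward the kinase, with no common direction.

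Enpp2 (ENSMUSG00000022425, chr15:54838901-54952892, minus strand) encodes autotaxin, which cleaves lysophosphatidylcholine to LPA outside the cell. The WT values were 0.465, 0.519, 0.440 and 0.573 FPKM, and the LRP1 KO values were 1.91, 0.676, 1.60 and 0.344 FPKM. LRP1 KO libraries 1 to 3 lay above all WT libraries and library 4 below all of them, a spread of 5.57 times within LRP1 KO against 1.30 times in WT. The ratio of means was 2.27, with an exact permutation p = 0.229, and 2.80 without LRP1 KO library 4. Only 2 libraries reached 1 FPKM, so Enpp2 was not tested with the other genes, and with no filter on low values the difference was 0.44 (limma adjusted p 0.269). Its ratio to Pecam1 was 0.0502 to 0.0843 in WT and 0.0367 to 0.0611 in LRP1 KO, which overlapped.

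**Figure D4:**
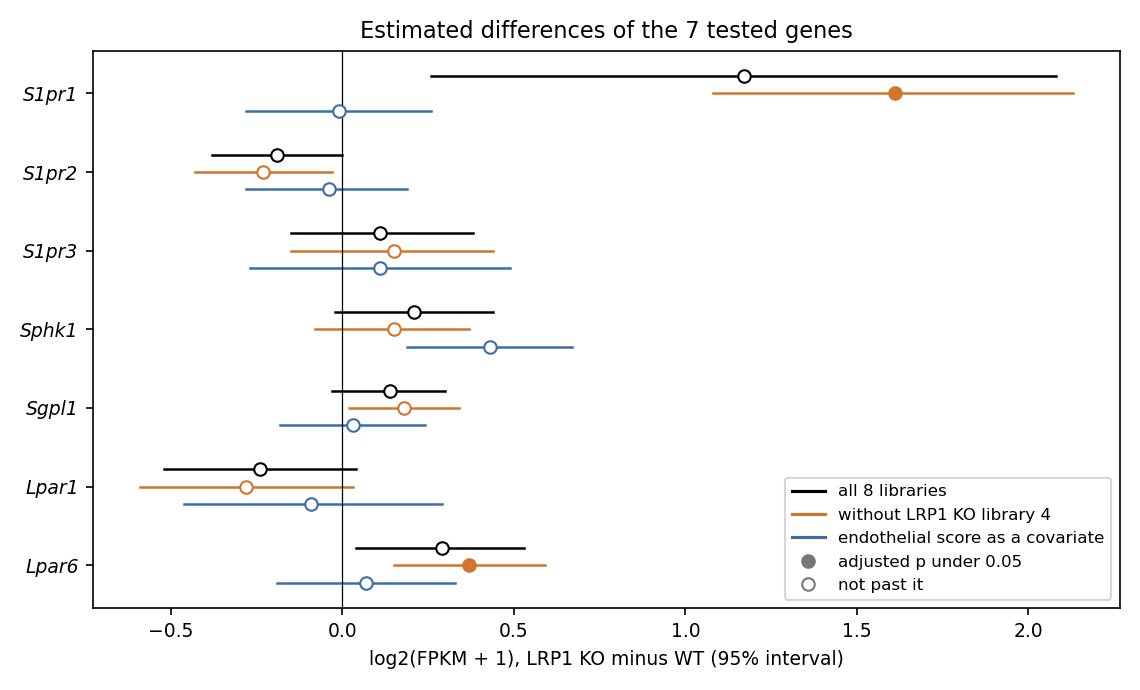
Estimated difference of each of the 7 tested genes on the log2(FPKM + 1) scale, LRP1 KO minus WT, with 95% intervals, from all 8 libraries (black), without LRP1 KO library 4 (orange) and with the endothelial score as a covariate (blue). Filled points have a limma adjusted p under 0.05. Only S1pr1 (1.61) and Lpar6 (0.37) have filled points, both without library 4, and the S1pr1 estimate is -0.01 with the covariate.

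Ranking the LRP1 KO libraries by level gave the order 1, 3, 2 and 4 for S1pr1, Lpar4, Lpar6 and Enpp2, or 4 of the 9 genes. The same ranking was found for 17 of the 20 endothelial markers, 5 of 7 lymphatic markers, 4 of 12 mural markers, 0 of 16 macrophage markers, 0 of 12 fibroblast markers and 8.46% of all tested genes. The exact opposite ranking was found for S1pr2 and Sphk1, for 8 of the 12 fibroblast markers, for 4 of the 12 mural markers and for 8.63% of all tested genes. The rankings were compared after the values were seen.

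Beyond the 9 genes, 99 genes of the same pathways were examined, of which 83 were tested. With all 8 libraries 12 of the 83 passed an adjusted p of 0.05, 7 higher and 5 lower, or 14.5%, near the share among all tested genes, and their median difference was 0.09. Leaving out WT library 2 left 5 calls, leaving out LRP1 KO library 1, 2 or 3 left 6 each, and leaving out LRP1 KO library 4 gave 27. With the endothelial, macrophage or mural score as a covariate none of the 83 passed in limma (11, 25 and 2 at an unadjusted p under 0.05), and with the fibroblast score 1 did (13 at an unadjusted p under 0.05). The macrophage and mural scores did not overlap between the groups, so those fits had little power, with 9 and 1 calls among all tested genes. Estimates of Asah1, Cers4 and Ankrd1 were 0.65, -1.09 and 1.51 with the macrophage score and 0.20, 0.18 and -0.005 with the mural one.

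Of the other receptors, S1pr4 and S1pr5 were too low to be tested, as were Lpar3 and Lpar5. Lpar2, which encodes LPA2, fell from 6.56 ± 0.903 to 4.90 ± 0.441 FPKM, a difference of -0.35 (SE 0.10, limma adjusted p 0.0462). Libraries 1 to 3 of LRP1 KO lay below every WT library. That call was lost without WT library 1, 2 or 3 or LRP1 KO library 1, 2 or 3, with adjusted p of 0.0701 to 0.126.

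Among 15 genes of S1P formation, export and removal, 11 were tested, 2 rose and none fell, against 6.27% higher and 7.31% lower among all tested genes. Asah1, the lysosomal acid ceramidase that frees sphingosine from ceramide, rose from 90.3 ± 11.8 to 129.0 ± 13.2 FPKM, by 0.51 (SE 0.10, limma adjusted p 0.0164). Acer2, the Golgi alkaline ceramidase, rose from 2.19 ± 0.295 to 4.58 ± 1.22 FPKM, by 0.78 (SE 0.16, limma adjusted p 0.0187). For both ceramidases the LRP1 KO libraries all exceeded the WT libraries. The Acer2 call was lost without WT library 2 or LRP1 KO library 1, 2 or 3 (adjusted p 0.0526 to 0.0586). Spns2, the S1P exporter, had the library pattern of S1pr1. Its WT values ran from 1.70 to 2.59 FPKM, and its LRP1 KO values were 6.73, 2.99, 4.33 and 1.52 FPKM (0.56, limma adjusted p 0.203). The ratio of group means was 1.87, and 2.26 without LRP1 KO library 4.

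Of 22 genes that make or break down ceramide and sphingomyelin, 21 were tested, 2 fell and none rose. Among all tested genes 7.31% were lower and 6.27% higher, so this count gives no result about the list. Cers4, which encodes a ceramide synthase, fell from 59.4 ± 2.88 to 37.3 ± 8.87 FPKM, by 0.68 on the log2 scale (SE 0.13, limma adjusted p 0.0147), with an adjusted p of 0.0502 without WT library 2. Without LRP1 KO library 4 the Cers4 difference was -0.83 (limma adjusted p 0.000319). Smpd2, which encodes a neutral sphingomyelinase, fell from 28.1 ± 3.62 to 20.2 ± 2.77 FPKM, by 0.46 on the log2 scale (SE 0.11, limma adjusted p 0.0318). For both enzymes the LRP1 KO libraries all lay under the WT libraries. The Smpd2 call was lost without WT library 1 or 2 or LRP1 KO library 1, 2 or 3, with adjusted p of 0.0669 to 0.0915. None of the 10 tested genes of LPA formation and removal other than autotaxin passed the limma adjusted threshold (3 at an unadjusted p under 0.05), and the largest estimate was that of the phospholipase gene Pla1a, -0.70 (limma adjusted p 0.0873).

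Downstream of the receptors, 18 genes of G proteins and of their effectors were tested, of which 2 fell, against 7.31% lower among all tested genes. Arhgef12, an exchange factor that acts downstream of G12/13, fell from 47.2 ± 4.48 to 31.6 ± 4.92 FPKM, by 0.57 on the log2 scale (SE 0.11, limma adjusted p 0.0136), and all LRP1 KO libraries were below all WT libraries. Gnai1, a Gi subunit gene, fell from 16.3 ± 1.68 to 11.8 ± 1.94 FPKM, by 0.44 on the log2 scale (SE 0.11, limma adjusted p 0.0357). The Gnai1 call held when LRP1 KO library 4 was left out and was lost without any other single library (adjusted p 0.0575 to 0.0931). The more abundant Gi gene Gnai2 averaged 185.6 ± 4.52 FPKM across WT libraries and 216.5 ± 18.6 FPKM across LRP1 KO libraries (0.22, limma adjusted p 0.0597). None of the 9 tested genes of receptor desensitization and S1P1 partners passed (3 at an unadjusted p under 0.05), and Cav1, which encodes caveolin-1, had the largest estimate, 0.74 (limma adjusted p 0.0694).

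Of 13 genes that receptor-driven YAP and SRF activity is known to regulate or act through, 13 were tested, 5 rose and none fell, against 6.27% higher among all tested genes. The mural score, whose list also holds Acta2, was above WT in all 4 LRP1 KO libraries. With it as a covariate none of the 5 passed (limma adjusted p 0.999 for each), and the estimates of Ankrd1, Acta2, Ccn1 and Ccn2 were -0.005, -0.22, -0.19 and -0.15. That fit left 1 call among all tested genes. In the same gene order, the estimates were 1.51, 1.68, 0.83 and 0.72 with the macrophage covariate. They were 0.68, 0.48, 0.21 and 0.37 with the endothelial and 0.84, 0.58, 0.31 and 0.47 with the fibroblast one, and none of these passed in limma. Ankrd1, a YAP target, rose from 31.5 ± 5.49 to 70.2 ± 16.2 FPKM, by 1.11 (SE 0.18, limma adjusted p 0.00723). Acta2, which encodes smooth muscle actin and is also a mural marker, rose from 360.4 ± 39.0 to 711.1 ± 175.0 FPKM, by 0.95 (SE 0.18, limma adjusted p 0.0128). For both of these genes the LRP1 KO libraries all exceeded the WT libraries. Ccn2 (connective tissue growth factor) rose from 298.2 ± 57.9 to 448.3 ± 65.9 FPKM, by 0.59 (limma adjusted p 0.0335), and Ccn1 rose by 0.50 (limma adjusted p 0.0245). Ccn2 lost its call without WT library 1 or 2 or LRP1 KO library 1, 2 or 3 (adjusted p 0.072 to 0.0974), and Ccn1 without WT library 1, 2 or 4 or LRP1 KO library 1, 2 or 3 (adjusted p 0.0549 to 0.0709). Yap1 itself averaged 50.5 ± 3.06 FPKM across WT libraries and 50.1 ± 1.91 FPKM across LRP1 KO libraries (-0.01, limma adjusted p 0.916).

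**Figure D5:**
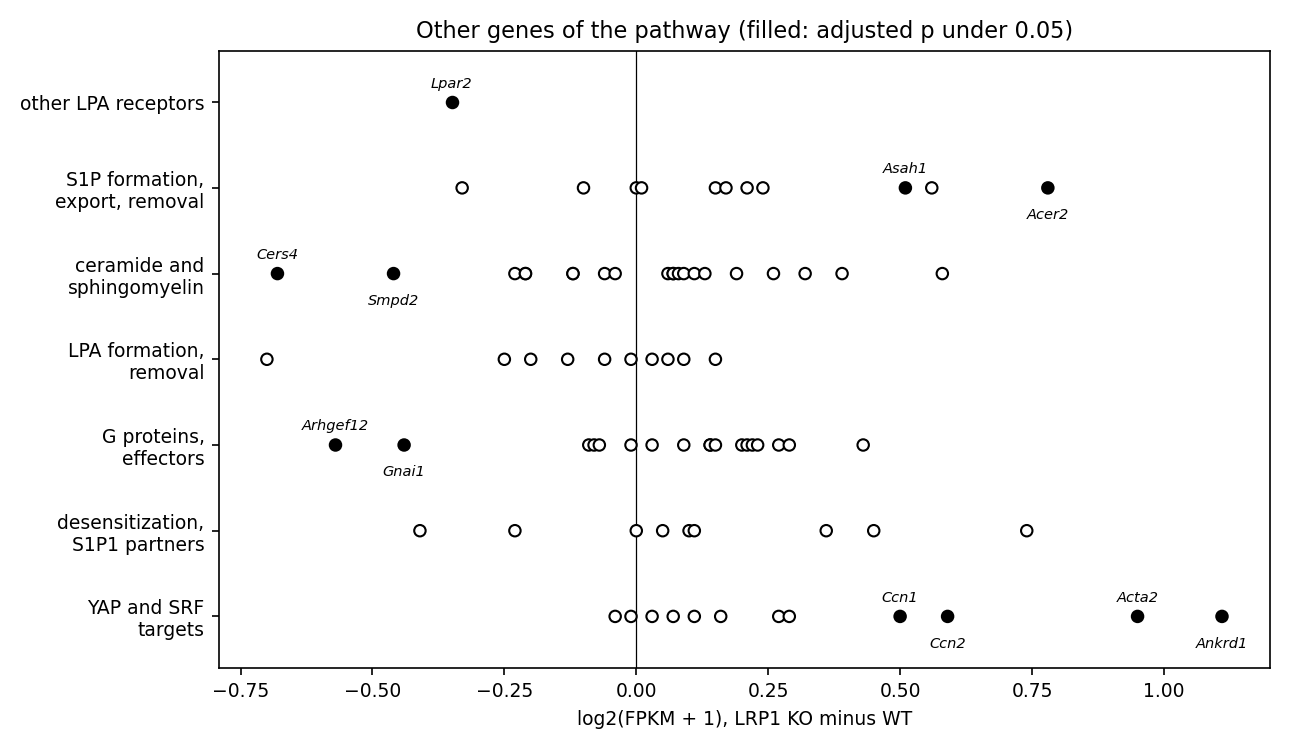
Difference on the log2(FPKM + 1) scale, LRP1 KO minus WT, of the 83 tested pathway genes other than the 9, with 1 not shown (1 point per gene, grouped by list), with filled points for a limma adjusted p under 0.05. The 6 filled points to the right are Asah1, Acer2 and the YAP and SRF targets Ccn1, Ccn2, Acta2 and Ankrd1, and the 5 to the left are Lpar2, Cers4, Smpd2, Arhgef12 and Gnai1.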

How the data were processed

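RNA-seq was analysed from 4 LRP1 KO and 4 WT libraries of total RNA, grouped and numbered by their titles. The table the authors deposited holds 1 value per gene and library, read here as FPKM. Its header names no unit, so the unit was inferred: the labels list TopHat2, Cufflinks and mm10, the values are not whole, and the 8 columns sum to 503571 to 504112 with nearly identical sorted values (median spread 0.574%), as after quantile normalization. The study's methods name another aligner and read counter, whose counts are not used here. Read depth is unknown, and differences in total RNA between libraries cannot be seen. Nothing states that libraries came from separate animals, so p-values measure the spread between these libraries.

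Genes of at least 1 FPKM in at least 4 of 8 libraries were kept (11389 of 22520). Values were analysed as log2(FPKM + 1), which understates changes of low genes, with limma 3.58.1 (R 4.3.3, variance trend, group as the only term, two-sided). P-values were adjusted by the Benjamini-Hochberg method over all tested genes. The threshold was 0.05. Single genes were also compared by an exact two-sided permutation test over the 70 ways to choose 4 of 8 libraries (smallest p 0.0286). The test was checked on simulated data.

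Scores are the mean log2(FPKM + 1) of the tested genes of a marker list. Alternatives were a pseudocount of 0.1, no filter, rescaled libraries, a constant variance prior, a replicate block, 4 score covariates and leaving out each library. The members and gene lists were chosen with earlier results of these data known. Pathway genes named are those past the threshold, or the 4 with the largest change where more than 4 passed, and the most alike profile was the smallest root mean square difference of centred log2 values. Ratios, rankings, Ccn1, Spns2, Pla1a, Cav1, Abcc1, Gnai2, Gnai3, Yap1, Eng, Flt1, Emcn, Erg and untested genes were singled out after their values were seen. For 2 genes covered by the naming rule, values are not reported here. Positions and coding sequences are from GENCODE M21 (GRCm38).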

Additional observations from a re-analysis of the deposited data

Results flagged for a closer look

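Among 66 groups of 4 libraries (each named gene in WT and in LRP1 KO), 2 held a library whose gap to its nearest neighbour exceeded Dixon's 95% critical value for the share of the group's range, and chance marks about 1 in 20 such groups. Cers4 was at 50.5 FPKM in LRP1 KO library 4 against 31.7, 34.2 and 32.9 FPKM in LRP1 KO libraries 1 to 3, with a gap of 0.863 of the range. That library lay between the other LRP1 KO libraries and WT (56.2 to 63.0 FPKM). Ankrd1 was at 39.8 FPKM in WT library 3 against 28.7 to 28.9 FPKM in the other 3 WT libraries, with a gap of 0.984 of the range, still below every LRP1 KO library (47.1 to 83.8 FPKM). In S1pr1, the position of LRP1 KO library 4 did not exceed the critical value, since libraries 1 to 3 were themselves spread from 10.3 to 23.5 FPKM.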

How the results depend on the processing

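Of 119 refits of the 7 tested genes, 110 kept the direction and the side of the threshold, 2 moved past it (S1pr1 and Lpar6 without LRP1 KO library 4) and 7 changed sign. The sign changes came from score covariates that themselves differ between the groups. With the mural score the estimates were -1.36 for S1pr1, 0.08 for S1pr2, -0.18 for S1pr3, -0.17 for Sgpl1 and -0.16 for Lpar6, with the endothelial score -0.01 for S1pr1, and with the macrophage score -0.39 for Sphk1. Of 204 refits of the 12 called pathway genes, 114 kept their call, 83 lost it and 7 changed sign, all with the mural score (Acer2 -0.13, Cers4 0.18, Smpd2 0.06, Ccn1 -0.19, Ccn2 -0.15, Ankrd1 -0.005, Acta2 -0.22). The Lrp1 call held in all 17 refits.

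The count of tested genes past the threshold was 1547, and was 170, 9, 260 and 1 with the endothelial, macrophage, fibroblast and mural covariates and 512 to 3021 when 1 library was left out. With the 2-fold limit it was 184, and 95, 9, 108 and 1 with those covariates in the same order and 133 to 339 with 1 library left out, the highest without LRP1 KO library 4. Pathway genes past the threshold were 12, and 0, 0, 1 and 0 with those covariates, 5 to 27 with 1 library left out and, among the same 83, 7 with no filter on low values. Called members were 0, and 0 to 2 with 1 library left out. With those covariates they were 0 in limma (1, 3, 1 and 2 at an unadjusted p under 0.05). The cause of these moves was not tested.

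Whether replicate numbers pair the libraries is not stated and is unknown. Deviations from the group means correlated at 0.158, 0.141, 0.340 and -0.312 in same-numbered libraries and at -0.404 to 0.377 in differently numbered ones. Deviations within a group depend on each other, so these correlations cannot settle the question. A replicate block gave 1013 called genes and 0 called members (4 at an unadjusted limma p under 0.05), and Lpar2, Acer2, Smpd2 and Ccn2 lost their calls (adjusted p 0.0906, 0.0503, 0.0539 and 0.0547). With no read depth, no counting error can be given for Lpar4 and Enpp2, the lowest members.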

Other observations

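Spns2 and S1pr1 share a library pattern but not a ratio. Spns2, the S1P exporter, stood at 0.228 to 0.296 of the Pecam1 level in WT libraries and at 0.185, 0.162, 0.165 and 0.226 of it in LRP1 KO libraries 1 to 4, so all 4 LRP1 KO ratios were below the WT range, whereas the S1pr1 ratios to Pecam1 overlapped. LRP1 KO library 4, at 0.226, was only just below the lowest WT ratio of 0.228. Endothelial markers also changed relative to Pecam1, whose ratio of group means was 2.78, against 1.87 for Spns2. That of Kdr and Flt1 was lower, at 1.40 and 1.17, and that of Emcn and Erg higher, at 3.72 and 4.02. The Spns2 ratio was chosen after its values were seen.

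Of the 83 tested pathway genes, 21 (25.3%) had groups that did not overlap, against 19.6% of all tested genes. Abcc1 was 1 of them, and Lpar5, too low to be tested, did not overlap either. For Lpar5, which encodes LPA5, the WT libraries are listed at 0.0486, 0, 0 and 0.0148 FPKM and the LRP1 KO libraries at 0.0840, 0.103, 0.0621 and 0.125 FPKM, all above WT and all far below the filter. Abcc1, a transporter that can also export S1P, ranged from 8.47 to 10.1 FPKM across WT and from 10.4 to 11.3 FPKM across LRP1 KO libraries, a difference of 0.21 that did not pass the limma adjusted threshold (adjusted p 0.0763).

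In the S1P1 effector group, the 3 Gi genes had estimates of different sign, a difference that was not tested. Gnai1 was lower in LRP1 KO, whereas Gnai2 (179.7 to 190.0 FPKM in WT, 190.4 to 232.8 FPKM in LRP1 KO) and Gnai3 (36.1 to 42.7 FPKM in WT, 43.0 to 49.4 FPKM in LRP1 KO) were above WT in all 4 LRP1 KO libraries without passing the limma adjusted threshold (adjusted p 0.0597 and 0.0705).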
